A study of Homo sapiens with 18 samples.

Results

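The expression of 35 genes of cholesterol and fatty acid synthesis was followed in VCaP, a cell line from a metastatic prostate cancer with the fusion of TMPRSS2 to ERG. The genes are listed by name, by a rule that uses no measured value but was written with earlier results of these data known, and all 35 were present among the 22034 genes of the table. They comprised 18 enzymes of sterol synthesis, 6 genes of sterol sensing and transport, 8 genes of fatty acid synthesis, and 3 genes driven by the liver X receptors (LXR). RNA-seq of ribosomal RNA-depleted total RNA had been performed on 18 samples in 6 groups of 3 biological replicates, all of them VCaP cells grown in medium with 10% FBS. In the first experiment, VCaP-shERG cells, which stably carry a doxycycline-inducible short hairpin RNA against ERG, received vehicle (labelled shERG.DMSO) or doxycycline (Dox) at 1 µg/mL. The labels of these 6 samples give no duration of Dox, and cells with a nontargeting hairpin and Dox were not analysed here, so effects of Dox and of the hairpin cannot be told apart. In the second experiment, parental VCaP cells received DMSO or 50 µM PBITE-1, the small molecule that the study developed against the PNT domain of ERG, for 4, 8, or 12 h. The DMSO samples carry no time in the labels, and the 3 times of PBITE-1 share them.

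Cholesterol is built from acetyl-CoA through mevalonate, farnesyl pyrophosphate, squalene, and lanosterol. When sterols in the endoplasmic reticulum are low, SCAP escorts the SREBP transcription factors to the Golgi, where they are cleaved, and the released fragments switch on genes of sterol and fatty acid synthesis. When sterols are high, the INSIG proteins hold SCAP back, and oxysterols activate the LXR receptors, which induce the export pumps ABCA1 and ABCG1. Lipid synthesis is known to be active in prostate cancer cells and to be under androgen control.

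Totals ranged from 11308600 to 17483423 counts per sample, and 14164 genes passed the filter on low counts, all 35 members included. Levels are given as CPM, counts scaled to library size with TMM factors. ERG, the target of the hairpin, was measured at 461, 449, and 433 CPM in shERG-DMSO and at 166, 167, and 159 CPM with Dox (log2 fold change -1.44, SE 0.04, limma adjusted p = 3.29e-22). In parental cells its log2 fold change was -0.68 (SE 0.04), -1.62 (SE 0.05), and -1.58 (SE 0.05) at 4, 8, and 12 h of PBITE-1. The epithelial marker KRT8 was at 104 CPM or above in every sample, and KRT18, EPCAM, and CDH1 were at 138 CPM or above. Of the 7 epithelial and prostate markers, 3 were lower and 2 higher with Dox, against 35.3% and 35.1% of all tested genes. At 12 h of PBITE-1, 4 were lower and 2 higher (median -0.62), against 39.4% and 39.4% of all genes. The log2 fold change was -3.42 for KLK3 at 12 h and -1.02 for TMPRSS2 with Dox. PTPRC of leukocytes reached no more than 0.269 CPM, CD3E of T cells 0.0727 CPM, and COL1A2 of fibroblasts 0.0571 CPM. COL1A1 rose from 1.36 to 5.62 CPM with Dox and from 1.31 CPM in DMSO to 6.17 CPM at 12 h, PECAM1 of endothelium rose from 0.0613 to 1.55 CPM at 12 h, and ALB of hepatocytes ranged from 21.1 to 64 CPM and fell at 12 h (-1.05). The sum of these 6 markers of other cell types was 37.9 to 42.2 CPM in shERG-DMSO and 68.7 to 69.8 CPM with Dox, and 46.3 to 49.6 CPM in DMSO, 49.7 to 55.5 CPM at 4 h, 48.8 to 52.2 CPM at 8 h, and 26.8 to 32.4 CPM at 12 h, most of it from ALB. The part of these shifts in the results was not tested. CPM were scaled within each experiment, so levels are not compared between VCaP-shERG and parental cells.

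With Dox, most of the synthesis genes were lower, whereas after PBITE-1 most of the same genes were higher. A gene was called at a limma adjusted p under 0.05 over all tested genes. With Dox, 26 of the 35 members were called lower and 7 higher, against 35.3% and 35.1% of all tested genes. The members had a median log2 fold change of -0.68, and all tested genes one of 0.02. At 4 h of PBITE-1, 3 members were lower and 27 higher, against 24.7% and 26.4% of all genes. At 8 h, 3 were lower and 30 higher (37% and 35.9% of all genes), and at 12 h, 4 were lower and 29 higher (39.4% and 39.4% of all genes). The median of the members rose from 0.37 at 4 h to 1.15 at 8 h and 1.26 at 12 h, with medians of all genes of -0.01, -0.02, and -0.01.

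Changes past 2-fold were fewer. With Dox, 8 members were lower and 3 higher past 2-fold, against 7.19% and 12% of all tested genes. PBITE-1 took 5 members past 2-fold upward at 4 h (7.28% of all genes), 22 at 8 h (14.9%), and 20 at 12 h (17.1%). In the other direction, 0 members were past 2-fold at 4 h (2.99% of all genes), 0 at 8 h (8.86%), and 1, ELOVL6, at 12 h (15.4%).

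The balance of the Dox comparison moved with the scaling. Of all genes called with Dox, 49.8% were higher under the TMM scaling used here, and 62.5% and 69.5% were higher with upper-quartile factors and with library size only. The members were then 24 lower and 8 higher, and 23 lower and 8 higher, with medians of -0.52 and -0.42. With library size only, the median of all genes moved from 0.02 to 0.28, and 4 rather than 8 members were past 2-fold lower.

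**Figure D1:**
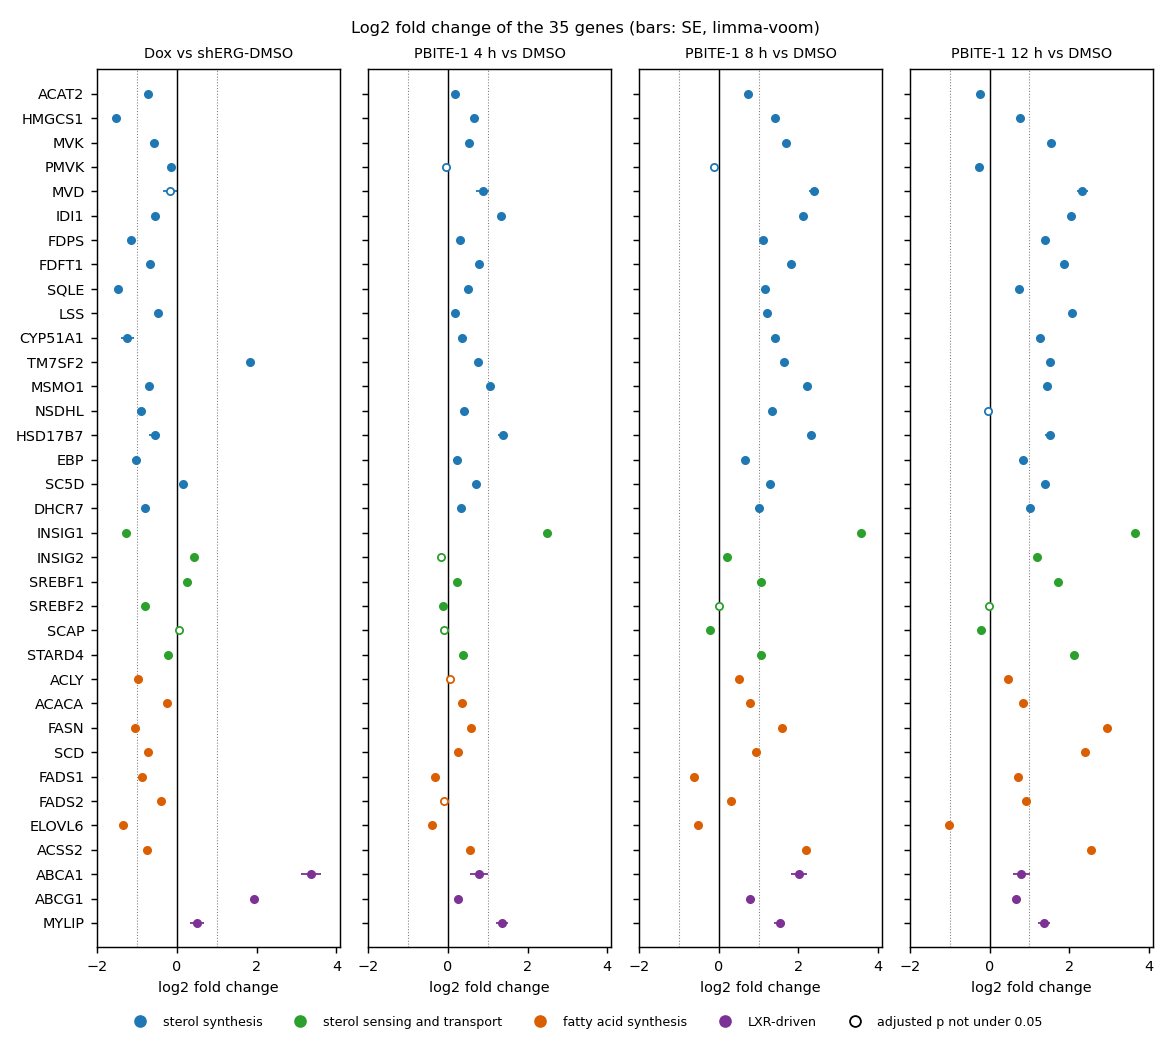
log2 fold change of each of the 35 members (rows) with Dox against shERG-DMSO and after 4, 8, and 12 h of PBITE-1 against DMSO, coloured by group of genes, with bars of 1 SE, open circles for genes not called, and dotted lines at 2-fold. With Dox most points of sterol and fatty acid synthesis lie left of 0 and the LXR-driven genes right of it, and at 8 and 12 h most points lie right of 0.

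Promoter sequences of RefSeq on GRCh38.p14 were found for 30 of the 35 genes, 41 promoters in all, each from 250 bases before to 50 bases after a gene start. CCAAT, the letters bound by NF-Y, a known partner of the SREBPs, was found on either strand in promoters of 22 of the 30 genes and in 26 of the 41 promoters, against 34.6% of all 35116 promoters. It occurred in 13 of 15 genes of sterol synthesis, 5 of 7 of fatty acid synthesis, 3 of 6 of sensing and transport, and 1 of 2 LXR-driven genes. The sterol regulatory element in the form TCACNCCAC was found in 1 gene, SREBF2, and 1 of the 41 promoters, against 1.13% of all promoters. The E-box CACGTG was found in 5 genes, ABCA1, INSIG1, LSS, SC5D, and SCAP, and 6 of the 41 promoters, against 7.26%. The LXR element of the DR4 type (a perfect direct repeat) was found in 0 of the 41 promoters, against 0.0199%. These are matches of letters in a short window and say nothing on binding in these cells. The stretches below are shown because their genes had the largest changes at 12 h of PBITE-1 among those with a match. MVD also met this rule and is not shown, because an annotated exon covers the upstream end of its window. Each stretch ends before the first annotated exon base in its window, runs 5′ to 3′ on the gene's strand, and has CCAAT, or ATTGG where the match is on the other strand, in capitals. The stretch of INSIG1 is chr7:155297628-155297775 (plus strand), that of ACSS2 is chr20:34874739-34874941 (plus strand, within the gene, in an intron of the longer models and before an inner start), and that of SCD is chr10:100346983-100347123 (plus strand). That of STARD4 is chr5:111512591-111512785 (minus strand), and that of LSS is chr21:46228825-46229024 (minus strand).
INSIG1: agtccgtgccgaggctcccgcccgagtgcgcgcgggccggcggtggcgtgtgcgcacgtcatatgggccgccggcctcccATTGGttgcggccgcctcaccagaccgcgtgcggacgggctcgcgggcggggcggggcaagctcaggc
ACSS2: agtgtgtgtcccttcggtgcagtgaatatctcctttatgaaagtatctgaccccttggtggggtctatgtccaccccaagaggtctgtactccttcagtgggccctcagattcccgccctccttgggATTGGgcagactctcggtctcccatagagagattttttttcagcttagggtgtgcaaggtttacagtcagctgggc
SCD: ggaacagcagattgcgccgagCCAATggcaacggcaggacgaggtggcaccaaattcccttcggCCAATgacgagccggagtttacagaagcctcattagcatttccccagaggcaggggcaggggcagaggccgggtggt
STARD4: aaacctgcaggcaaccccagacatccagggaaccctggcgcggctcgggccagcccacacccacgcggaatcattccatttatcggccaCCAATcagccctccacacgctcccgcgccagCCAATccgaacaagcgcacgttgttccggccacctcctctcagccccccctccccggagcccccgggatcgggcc
LSS: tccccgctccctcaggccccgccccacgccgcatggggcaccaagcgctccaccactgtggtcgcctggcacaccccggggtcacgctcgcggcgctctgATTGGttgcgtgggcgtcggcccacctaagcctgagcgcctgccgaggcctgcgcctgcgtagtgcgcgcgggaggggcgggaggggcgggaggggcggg
SCD and STARD4 each show a pair of CCAAT letters on the gene's strand, and INSIG1, ACSS2, and LSS show the letters on the other strand.

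Sterol synthesis was called lower with Dox in 15 of 18 enzymes and higher in 2, TM7SF2 and SC5D, with a median log2 fold change of -0.69. After PBITE-1, 17 of the 18 were higher at 4 h and at 8 h and 15 at 12 h, with medians of 0.52, 1.37, and 1.40. PMVK was the exception at 4 and 8 h. Of all tested genes, 35.3% were lower and 35.1% higher with Dox. The shares higher after PBITE-1 were 26.4%, 35.9%, and 39.4% at 4, 8, and 12 h.

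The first steps lead from acetyl-CoA to mevalonate. ACAT2, a thiolase that joins acetyl-CoA units, was at 120, 129, and 128 CPM in shERG-DMSO and at 73.8, 76.7, and 79 CPM with Dox (log2 fold change -0.72, SE 0.05, limma adjusted p = 4.08e-13). In parental cells ACAT2 went from 129 ± 7.89 CPM (SD, n = 3) in DMSO to 216 ± 12.2 CPM at 8 h and back to 109.6 ± 1.41 CPM at 12 h. It was thus above DMSO at 8 h (0.75, SE 0.05) and below it at 12 h (-0.24, SE 0.05, limma adjusted p = 7.05e-05). Its call at 4 h (0.17) was lost without DMSO replicate 2 (0.12, adjusted p = 0.0555). ACAT2 shares 397 exon bases with TCP1 on the opposite strand, whose log2 fold change was -0.88 with Dox and -0.33 at 12 h, and the use of strand in counting is not given in the sources used here.

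HMGCS1, which makes HMG-CoA, had the largest fall of the members with Dox. It was at 479, 569, and 526 CPM in shERG-DMSO and at 186, 188, and 178 CPM with Dox (-1.52, SE 0.05, limma adjusted p = 4.49e-20). In parental cells it was at 944, 921, and 996 CPM in DMSO, 1361, 1680, and 1463 CPM at 4 h, 2629, 2501, and 2534 CPM at 8 h, and 1535, 1718, and 1600 CPM at 12 h. All samples of each PBITE-1 time lay above all DMSO samples, and those of 12 h lay below those of 8 h and overlapped those of 4 h.

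The next enzymes turn mevalonate into the isoprenoid unit. MVK, mevalonate kinase, was lower with Dox (-0.58, SE 0.09) and rose from 34.4 ± 1.96 CPM (SD, n = 3) in DMSO to 111 ± 5.34 CPM at 8 h (1.69, SE 0.06). It shares 306 exon bases with MMAB on the opposite strand, whose log2 fold change at 8 h was 0.78. PMVK, phosphomevalonate kinase, differed little: -0.14 (SE 0.06, limma adjusted p = 0.0356) with Dox, with overlapping groups, and -0.27 (SE 0.06) at 12 h. Its call with Dox was lost without shERG-DMSO replicate 1 (-0.11) or 3 (-0.14) and without shERG-Dox replicate 2 (-0.11) or 3 (-0.08), and its sign turned with upper-quartile factors (0.02) and with library size only (0.12).

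MVD, mevalonate diphosphate decarboxylase, was the sterol enzyme with the largest rise at 12 h. It was at 5.52, 8.06, and 5.48 CPM in DMSO, 11.5, 12, and 10.8 CPM at 4 h, 35, 32.9, and 30 CPM at 8 h, and 35.4, 31.1, and 28.8 CPM at 12 h (log2 fold change 2.33, SE 0.13, limma adjusted p = 7.19e-19). No PBITE-1 sample overlapped DMSO. With Dox, MVD was not called (-0.17, SE 0.19, limma adjusted p = 0.422).

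IDI1, which isomerises isopentenyl diphosphate, was already past 2-fold at 4 h. It was at 259.7, 254, and 272 CPM in DMSO and at 641, 702, and 639 CPM at 4 h, and it stood at 1048, 1135, and 1077 CPM at 12 h (2.05, SE 0.04, limma adjusted p = 2.87e-34). With Dox it fell from a mean of 207 to 142 CPM (-0.54, SE 0.04). FDPS, which makes farnesyl pyrophosphate, fell with Dox by 1.16 on the log2 scale (SE 0.05) and rose to 364 ± 8.47 CPM (SD, n = 3) at 12 h from 138 ± 5.53 CPM in DMSO (1.40, SE 0.04).

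Squalene and lanosterol are made by the next enzymes. FDFT1, squalene synthase, was lower with Dox (-0.68, SE 0.05) and rose from 218 ± 1.70 CPM (SD, n = 3) in DMSO to 797 ± 35.7 CPM at 12 h (1.87, SE 0.04). SQLE, squalene epoxidase, a rate-limiting step of the pathway, was at 436, 471, and 471 CPM in shERG-DMSO and at 171, 162, and 166 CPM with Dox (-1.47, SE 0.04, limma adjusted p = 6.72e-22). Its 3 Dox samples were far below the vehicle samples.

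In parental cells SQLE was at 528, 510.1, and 555 CPM in DMSO, 736, 792, and 739.9 CPM at 4 h, 1190, 1199, and 1145 CPM at 8 h, and 845, 893, and 907 CPM at 12 h. The 8 h samples were the highest, and the 12 h samples lay between those of 4 and 8 h. LSS, lanosterol synthase, was lower with Dox (-0.48, SE 0.05), and it was among the few sterol enzymes that went on rising. It was at 157, 161, and 146 CPM in DMSO, 162, 186, and 175 CPM at 4 h, 366, 346, and 362 CPM at 8 h, and 694, 613, and 645 CPM at 12 h (2.07, SE 0.05, limma adjusted p = 5.87e-32). Without replicate 2 of the 4 h samples, the rise of LSS at 4 h (0.18) was not called (0.13, adjusted p = 0.0687).

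The last steps turn lanosterol into cholesterol. CYP51A1, lanosterol demethylase, fell with Dox from 13.7 ± 1.49 to 5.88 ± 1.31 CPM (SD, n = 3 each; -1.24, SE 0.16, limma adjusted p = 8.7e-08) and rose at 12 h to 28.7 ± 0.692 CPM from 12 ± 0.898 CPM in DMSO (1.26, SE 0.09). At 4 h its rise (0.37) was lost without replicate 2 of that group (0.27, adjusted p = 0.0666). CYP51A1 shares 2844 exon bases with another gene model on the same strand, AC000120.2, which had at most 1 count in any sample, so its own count may hold only part of its reads.

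TM7SF2, a sterol reductase that acts beside the lamin B receptor, was the sterol enzyme with the largest rise with Dox. It was at 104, 100.4, and 91.5 CPM in shERG-DMSO and at 344, 354, and 347 CPM with Dox (1.83, SE 0.04, limma adjusted p = 9.91e-23), with no overlap. After PBITE-1 it rose as well, from 104 CPM in DMSO to 176 CPM at 4 h, 324 CPM at 8 h, and 300.3 CPM at 12 h as group means (1.52 at 12 h, SE 0.05). TM7SF2 shares 16 exon bases with VPS51, whose log2 fold change with Dox was 0.07.

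MSMO1, the sterol methyl oxidase, was at 323, 316, and 351 CPM in DMSO, 627, 779.6, and 672 CPM at 4 h, 1545, 1542, and 1502 CPM at 8 h, and 829, 938, and 904 CPM at 12 h. It was past 2-fold at each time and highest at 8 h (2.21, SE 0.05, limma adjusted p = 6.05e-32), and it was lower with Dox (-0.69, SE 0.05). NSDHL, which acts on the same methyl groups, was at 39.4, 38.8, and 41.1 CPM in DMSO, 103, 105, and 93.8 CPM at 8 h, and 41.6, 35.5, and 38.8 CPM at 12 h. At 12 h NSDHL was not called (-0.05, SE 0.07, limma adjusted p = 0.546) and its samples overlapped DMSO, whereas Dox lowered it (-0.89, SE 0.09).

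HSD17B7, a sterol ketoreductase, had a log2 fold change of 1.37 (SE 0.11) at 4 h, 2.31 (SE 0.10) at 8 h, and 1.51 (SE 0.11) at 12 h, and one of -0.56 (SE 0.13) with Dox. EBP, the sterol isomerase, fell with Dox from 23.8 ± 2.30 to 11.7 ± 0.203 CPM (SD, n = 3 each; -1.03, SE 0.10) and rose at 12 h (0.84, SE 0.08). Its groups overlapped at 4 h (0.23, limma adjusted p = 0.0322), and that call was lost without DMSO replicate 2 (0.21) or 3 (0.20) and without replicate 1 (0.22) or 2 (0.13) of the 4 h samples. SC5D, the sterol desaturase, was slightly higher with Dox (0.16, SE 0.03) and rose to 774 ± 11.5 CPM at 12 h from 294 ± 11.4 CPM in DMSO (SD, n = 3 each; 1.39, SE 0.04). DHCR7, which reduces 7-dehydrocholesterol to cholesterol, was lower with Dox (-0.81, SE 0.04), with a log2 fold change of 1.00 (SE 0.04) at 8 h and of 1.01 (SE 0.04) at 12 h.

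**Figure D2:**
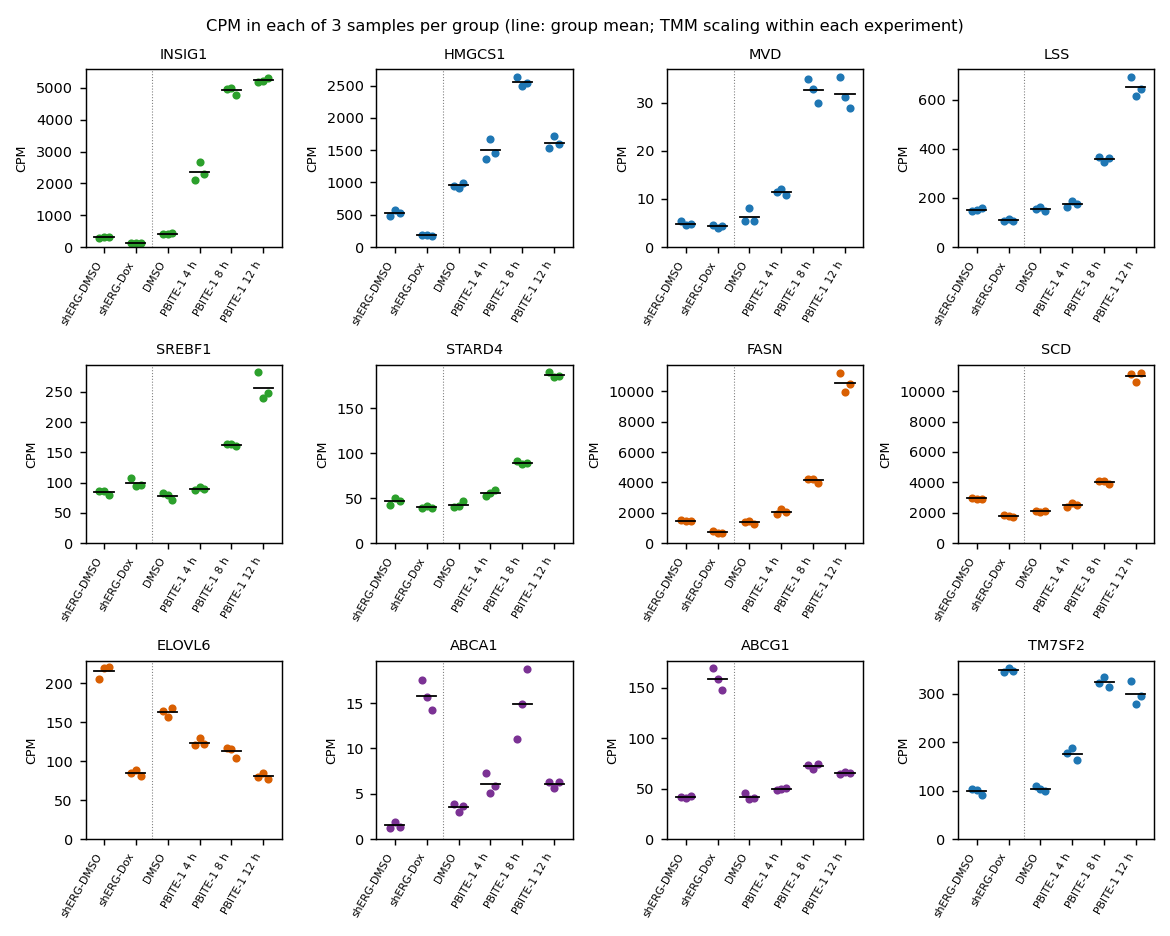
CPM of 12 members in each of the 18 samples, on linear axes from 0, with a point for each sample, a line for each group mean, and a dotted line between the experiments. INSIG1 and FASN climb from DMSO to 12 h of PBITE-1 and are lower with Dox, and ABCA1 is higher in the Dox samples than in shERG-DMSO.

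Sensing and transport moved in both directions. Of its 6 genes, 3 were lower and 2 higher with Dox (median -0.08), against 35.3% and 35.1% of all tested genes. At 12 h, 1 was lower and 4 higher (median 1.47), against 39.4% and 39.4% of all genes. INSIG1, which retains SCAP in the endoplasmic reticulum and is itself a target of the SREBPs, had the largest rise of the 35 members at each time. It was at 421, 398, and 428 CPM in DMSO, 2121, 2669, and 2284 CPM at 4 h, 4969, 5005, and 4782 CPM at 8 h, and 5170, 5211, and 5320 CPM at 12 h, 12.6-fold above DMSO (3.66, SE 0.05, limma adjusted p = 4.28e-40). With Dox it went the other way, from 291, 311, and 314 CPM to 125, 129, and 124 CPM (-1.28, SE 0.04, limma adjusted p = 4.09e-20). The groups did not overlap in either experiment.

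INSIG2, its homologue, was higher with Dox (0.42, SE 0.07) and rose late. It was at 25.3, 23.5, and 25.5 CPM in DMSO, 27.6, 29, and 29.9 CPM at 8 h, and 54.6, 55.4, and 60.8 CPM at 12 h (1.20, SE 0.07, limma adjusted p = 2.62e-18). The small rise at 8 h (0.21) was lost without DMSO replicate 2 (0.18) or replicate 3 of the 8 h samples (0.19).

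The genes of the SREBP proteins differed from each other. SREBF1, whose products act mostly on fatty acid genes, was higher with Dox (0.25, SE 0.05) and at 82.1, 79, and 71.3 CPM in DMSO, 163, 164, and 159.7 CPM at 8 h, and 283, 239.7, and 248 CPM at 12 h (1.73, SE 0.05, limma adjusted p = 3.36e-27). SREBF1 shares 556 exon bases with RAI1 on the opposite strand, which was lower at 12 h (-1.35). SREBF2, whose product acts mostly on sterol genes, was at 324, 319.5, and 315 CPM in shERG-DMSO and at 192, 178, and 176 CPM with Dox (-0.81, SE 0.04, limma adjusted p = 7.35e-17). In parental cells SREBF2 was at 308, 307, and 296 CPM in DMSO and at 312, 294, and 304 CPM at 12 h, with overlapping groups (log2 fold change -0.00, SE 0.04). Its fall at 4 h (-0.12, adjusted p = 0.0101) was lost without replicate 1 of that group (-0.09).

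SCAP, the escort of the SREBPs, was not called with Dox (0.05, SE 0.05, limma adjusted p = 0.37). At 8 and 12 h it had log2 fold changes of -0.21 (SE 0.07 each), with groups that overlapped. The call of SCAP at 8 h was lost without DMSO replicate 2 (-0.17) or replicate 2 of the 8 h samples (-0.17), and that at 12 h without replicate 2 of the 12 h samples (-0.13). STARD4, a carrier that moves cholesterol between membranes, was at 40.2, 41.8, and 46.6 CPM in DMSO, 52.5, 55.2, and 59.3 CPM at 4 h, 91.3, 88.3, and 89.6 CPM at 8 h, and 190.5, 185, and 186 CPM at 12 h (2.12, SE 0.06, limma adjusted p = 7.92e-30). With Dox, STARD4 was slightly lower (-0.21, SE 0.07), a call that was lost without shERG-DMSO replicate 2 (-0.15) and whose sign turned with library size only (0.05).

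Fatty acid synthesis was lower with Dox in all 8 genes (median -0.80). After PBITE-1, 2 were lower and 4 higher at 4 h, 2 lower and 6 higher at 8 h, and 1 lower and 7 higher at 12 h. The medians were 0.15, 0.64, and 0.88. Of all tested genes, 35.3% were lower with Dox. The shares lower and higher were 24.7% and 26.4% at 4 h, 37% and 35.9% at 8 h, and 39.4% and 39.4% at 12 h. ACLY, which makes acetyl-CoA from citrate, fell with Dox from 293 ± 4.66 to 149 ± 1.71 CPM (SD, n = 3 each; -0.98, SE 0.04) and rose modestly at 12 h (0.47, SE 0.04). ACSS2, which makes acetyl-CoA from acetate, was at 60.4, 60.9, and 55.8 CPM in DMSO, 80.1, 92.3, and 85.8 CPM at 4 h, 277, 269.8, and 252 CPM at 8 h, and 332, 339, and 366 CPM at 12 h (2.55, SE 0.05, limma adjusted p = 1.2e-32). All ACSS2 samples of PBITE-1 were above DMSO, and Dox lowered it (-0.74, SE 0.06). ACACA, acetyl-CoA carboxylase, was lower with Dox (-0.25, SE 0.02), with its sign turned with library size only (0.01), and higher at 12 h (0.84, SE 0.03).

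FASN, the fatty acid synthase, was at 1491, 1474, and 1470 CPM in shERG-DMSO and at 762, 689, and 681 CPM with Dox (-1.06, SE 0.03, limma adjusted p = 1.89e-21). In parental cells it was at 1390, 1463, and 1267 CPM in DMSO, 1929, 2225, and 2042 CPM at 4 h, 4256, 4210, and 3966 CPM at 8 h, and 11200, 9937, and 10480 CPM at 12 h (2.94, SE 0.04, limma adjusted p = 4.86e-39). FASN thus rose at each step, and no group overlapped the next.

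SCD, which puts the double bond into stearate and palmitate, was at 2986, 2926, and 2920 CPM in shERG-DMSO and at 1844, 1755, and 1726 CPM with Dox (-0.73, SE 0.02, limma adjusted p = 2.97e-21). In parental cells it was at 2098, 2053, and 2111 CPM in DMSO, 2372, 2621, and 2491 CPM at 4 h, 4063, 4103, and 3894 CPM at 8 h, and 11120, 10610, and 11230 CPM at 12 h (2.40, SE 0.03, limma adjusted p = 1.76e-41). Most of the rise of SCD lay between 8 and 12 h (1.45, SE 0.03).

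Of the desaturases of polyunsaturated fatty acids, FADS1 followed another course. FADS1 was at 248, 254, and 247 CPM in DMSO, 200, 202, and 199 CPM at 4 h, 162, 166, and 155 CPM at 8 h, and 437, 378, and 424 CPM at 12 h. It was thus below DMSO at 8 h (-0.63, SE 0.05) and above it at 12 h (0.72, SE 0.04, limma adjusted p = 9.7e-19), with no overlap at either time. FADS2 was not called at 4 h (-0.09, limma adjusted p = 0.179) and was higher at 8 h (0.30, SE 0.05) and 12 h (0.92, SE 0.05). Dox lowered FADS1 (-0.87, SE 0.04) and FADS2 (-0.39, SE 0.05). FADS1 and FADS2 share 490 exon bases on opposite strands, and FADS2 shares 49 with FEN1, which was lower with Dox (-1.79) and at 12 h (-1.06).

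ELOVL6, which lengthens palmitate, was the only member lower at all 3 times of PBITE-1. It was at 164, 157, and 169 CPM in DMSO, 121, 129, and 122 CPM at 4 h, 118, 116, and 104 CPM at 8 h, and 79.7, 85, and 77.4 CPM at 12 h (-1.02, SE 0.05, limma adjusted p = 1.84e-20). It also fell with Dox, from 206, 220, and 221 CPM to 84.4, 88.5, and 80.9 CPM (-1.35, SE 0.05). Without DMSO replicate 3, ELOVL6 was still called at 12 h but not past 2-fold.

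The 3 LXR-driven genes were higher in all 4 comparisons with a control. Their medians were 1.92 with Dox and 0.78, 1.53, and 0.80 at 4, 8, and 12 h. Of all tested genes, 35.1% were higher with Dox and 26.4%, 35.9%, and 39.4% at 4, 8, and 12 h. ABCA1, the pump that loads cholesterol on apolipoprotein A-I, was at 1.25, 1.89, and 1.35 CPM in shERG-DMSO and at 17.6, 15.7, and 14.2 CPM with Dox, 10.4-fold higher (3.37, SE 0.25, limma adjusted p = 4.43e-12). It had 15 to 242 counts per sample, the fewest of the members. In parental cells ABCA1 was at 3.88, 2.99, and 3.6 CPM in DMSO, 7.26, 5.09, and 5.84 CPM at 4 h, 11, 14.9, and 18.7 CPM at 8 h, and 6.33, 5.62, and 6.25 CPM at 12 h. It was highest at 8 h (2.01, SE 0.19), and 12 h was below 8 h (-1.21, SE 0.16, limma adjusted p = 4.64e-08) with no overlap.

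ABCG1, which exports cholesterol to HDL, was at 42.1, 40.4, and 43.1 CPM in shERG-DMSO and at 169.8, 159, and 148 CPM with Dox (1.92, SE 0.06, limma adjusted p = 5.91e-20). After PBITE-1, ABCG1 was at 45.3, 39.5, and 40.5 CPM in DMSO, 48.3, 49.8, and 50.3 CPM at 4 h, 73.2, 69, and 74.2 CPM at 8 h, and 64, 66.7, and 65.8 CPM at 12 h (0.65, SE 0.06). Each PBITE-1 group lay above DMSO, and at 12 h the rise was smaller than with Dox (interaction -1.31, SE 0.09). MYLIP, a ubiquitin ligase that takes lipoprotein receptors off the cell surface, was at 4.73, 6.16, and 5.82 CPM in DMSO, 17.1, 14.2, and 12.3 CPM at 4 h, and 14.3, 14.2, and 14.6 CPM at 12 h (1.37, SE 0.14, limma adjusted p = 3.39e-11). With Dox its change was smaller (0.51, SE 0.17), and the call was lost without shERG-DMSO replicate 2 (0.42, adjusted p = 0.0582).

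**Figure D3:**
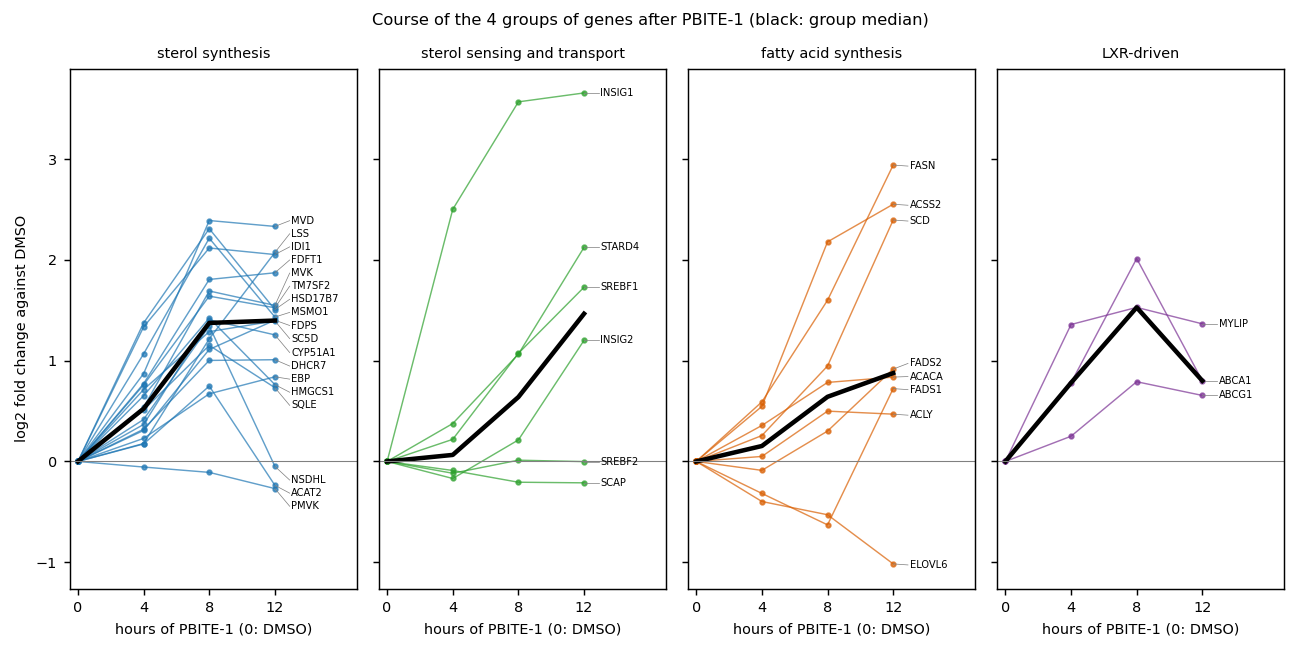
log2 fold change against DMSO of each member after 4, 8, and 12 h of PBITE-1, in a panel for each group of genes, with the median of the group in black and the DMSO samples drawn at 0 h. Of sterol synthesis, 9 of 18 genes are lower and 3 higher at 12 h than at 8 h (median of the differences -0.13). Of fatty acid synthesis 5 of 8 are higher (0.49), and of the LXR-driven genes ABCA1 is lower by more than 2-fold. Of all tested genes, 32.5% are lower and 27.8% higher at 12 h than at 8 h.

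The course after PBITE-1 was compared directly between times. From 4 to 8 h, 30 of the 35 members rose and 2 fell, FADS1 and ELOVL6, against 26.7% and 26.3% of all tested genes. Without replicate 2 of the 4 h samples or replicate 3 of the 8 h samples, ELOVL6 was not called (-0.10 and -0.08). From 8 to 12 h, 12 members rose and 12 fell, against 27.8% and 32.5% of all genes, and the groups of genes parted. This balance moved with the scaling. With RLE factors 14 rose and 11 fell, and with upper-quartile factors or library size only 15 rose and 9 fell. Under the TMM scaling, 9 genes of sterol synthesis fell and 3 rose, FDPS, LSS, and SC5D. Of fatty acid synthesis, 5 rose and 1 fell, ELOVL6, and of sensing and transport, 4 rose and 0 fell.

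The largest differences from 8 to 12 h were those of SCD (1.45, SE 0.03), NSDHL (-1.39, SE 0.07), FADS1 (1.35, SE 0.04), FASN (1.34, SE 0.04), ABCA1 (-1.21, SE 0.16), and STARD4 (1.06, SE 0.05). By mean CPM, 16 members were highest at 8 h, 16 at 12 h, and 3 in DMSO. Of the 18 sterol enzymes, 11 had their highest mean at 8 h and 6 at 12 h. Of the 8 fatty acid genes, 1 had it at 8 h and 6 at 12 h. The place of the highest mean was not tested, and the share of all genes was not taken. The difference between 8 and 12 h was not called in 11 of the 35 members, 6 of sterol synthesis and 2 of fatty acid synthesis among them.

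Between 4 and 12 h, 27 members rose and 4 fell, ACAT2, PMVK, NSDHL, and ELOVL6, against 35% and 35% of all genes. Past 2-fold, 14 were higher and 0 lower, against 9.08% and 11% of all genes. The 14 were 5 of sterol synthesis (MVK, MVD, FDPS, FDFT1, and LSS), 4 of sensing and transport (INSIG1, INSIG2, SREBF1, and STARD4), and 5 of fatty acid synthesis (FASN, SCD, FADS1, FADS2, and ACSS2). FASN had the largest difference (2.35, SE 0.04, limma adjusted p = 9.85e-36).

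Several small differences between times depended on single samples. From 8 to 12 h, the fall of MVK (-0.14) was not called without 8 h replicate 1 (-0.14) or 2 (-0.11) or 12 h replicate 1 (-0.12). That of PMVK (-0.16) was not called without 8 h replicate 1 (-0.16) or 3 (-0.13) or 12 h replicate 3 (-0.12). For TM7SF2 (-0.12) this held without 8 h replicate 1 (-0.12) or 2 (-0.09) or 12 h replicate 2 (-0.06) or 3 (-0.11). The rise of INSIG1 (0.09) was lost without 8 h replicate 1 (0.10) or 3 (0.07) or 12 h replicate 3 (0.08), and the fall of ABCG1 (-0.14) without 8 h replicate 1 (-0.12) or 3 (-0.12) or 12 h replicate 1 (-0.12) or 3 (-0.14). Calls were gained from 8 to 12 h for IDI1 without 12 h replicate 2 (-0.10), for FDFT1 (0.09), ACACA (0.07), and EBP (0.20) without 12 h replicate 1, and for EBP also without DMSO replicate 1 or 4 h replicate 2 or 3 (0.17 each). From 4 to 12 h, HMGCS1 (0.11) was not called without 4 h replicate 1 (0.04) or 3 (0.09) or 12 h replicate 2 (0.07), and SREBF2 (0.12) not without 4 h replicate 1 (0.09). MYLIP was called from 4 to 8 h without 4 h replicate 1 (0.29), and PMVK was called at 8 h without DMSO replicate 3 (-0.14).

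The responses to Dox and to 12 h of PBITE-1 were compared in an interaction term over all 18 samples. The response to PBITE-1 was above that to Dox in 30 members and below it in 4, against 33.3% and 35.1% of all genes, and the median difference of the members was 1.77. Of the 35 members, 21 were lower with Dox and higher at 12 h of PBITE-1, 12 of sterol synthesis, 2 of sensing and transport, and 7 of fatty acid synthesis. A further 7 were higher in both, ABCA1, ABCG1, MYLIP, INSIG2, SREBF1, TM7SF2, and SC5D, and 3 were lower in both, ACAT2, PMVK, and ELOVL6. SREBF2 and NSDHL were lower with Dox and not called at 12 h, whereas MVD (higher) and SCAP (lower) were called at 12 h and not with Dox. The share of all tested genes with each pair of calls was not taken, so these pairs are counts only. Taken singly, the shares lower and higher were 35.3% and 35.1% with Dox and 39.4% and 39.4% at 12 h.

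The difference was largest for INSIG1 (4.89, SE 0.08, limma adjusted p = 9.51e-41), FASN (3.96, SE 0.06), ACSS2 (3.25, SE 0.09), and SCD (3.08, SE 0.04). The 4 members below were ABCA1 (-2.61, SE 0.37, limma adjusted p = 2.62e-08), ABCG1 (-1.31, SE 0.09), TM7SF2 (-0.34, SE 0.07), and SCAP (-0.31, SE 0.09). PMVK was not called (-0.17, SE 0.08, limma adjusted p = 0.0623), and it was called without shERG-DMSO replicate 1 (-0.20), shERG-Dox replicate 3 (-0.22), DMSO replicate 3 (-0.21), or 12 h replicate 1 (-0.21). Scaling moved the share of all genes that were higher in this comparison from 48.7% of calls to 40.8% with upper-quartile factors and to 33.1% with library size only, and the members to 5 lower and 30 higher and to 5 lower and 29 higher. The experiments differ in the cells as well as in the treatment, and these parts cannot be told apart.

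**Figure D4:**
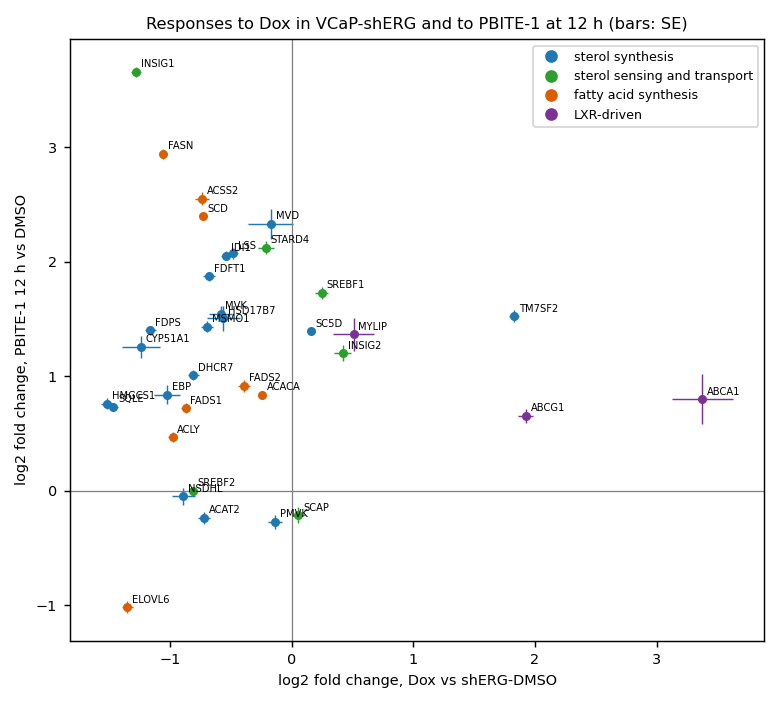
log2 fold change with Dox (x axis) against that at 12 h of PBITE-1 (y axis) for the 35 members, coloured by group of genes, with bars of 1 SE. Most sterol and fatty acid genes lie in the upper left, lower with Dox and higher after PBITE-1, and ABCA1, ABCG1, and TM7SF2 lie in the upper right.

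Levels can be compared between genes only per length, as CPM per kilobase of exon. In DMSO, SCD was highest with 389 CPM per kb, followed by HMGCS1 (203), FASN (147), SQLE (123), MSMO1 (114), and INSIG1 (114), and ABCA1 was lowest with 0.307. At 12 h of PBITE-1, SCD stood at 2049 CPM per kb, INSIG1 at 1434, and FASN at 1125, and ABCA1 at 0.535 remained last. INSIG1 thus went from the sixth to the second place, and HMGCS1 from the second to the fourth.

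Other genes of these pathways moved in both directions, and at 12 h more of each list were higher than lower. Of all tested genes, 35.3% were lower and 35.1% higher with Dox, and 39.4% and 39.4% at 12 h. Of 23 further sterol genes, 9 were lower and 12 higher with Dox, and 7 were lower and 14 higher at 12 h. Of 25 further fatty acid genes, 11 were lower and 10 higher with Dox, and 7 were lower and 15 higher at 12 h. Of 10 further LXR genes, 3 were lower and 5 higher with Dox, and 2 were lower and 6 higher at 12 h. Their medians with Dox were 0.20, -0.02, and 0.23, and at 12 h 0.23, 0.49, and 0.30. The medians of all tested genes were 0.02 with Dox and -0.01 at 12 h.

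Among the further sterol genes, NPC1 and NPC2, which carry cholesterol out of the lysosome, rose at 12 h from 19.3 to 159 CPM (3.04, SE 0.08) and from 21 to 94.3 CPM (2.17, SE 0.07), and STARD5, a cytosolic sterol carrier, rose with them (2.13, SE 0.14). VLDLR, a lipoprotein receptor, was lower with Dox (-1.07, SE 0.06) and at 12 h (-1.78, SE 0.06). TMEM97, the sigma-2 receptor, which binds NPC1, was lower with Dox (-1.66, SE 0.05), as was ERLIN1 of the endoplasmic reticulum (-1.04, SE 0.07).

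Among the further fatty acid genes, those of triglyceride synthesis LPIN1 (2.73, SE 0.06) and DGAT1 (2.03, SE 0.10) rose at 12 h, as did ACSL4, which activates polyunsaturated fatty acids (1.87, SE 0.07). The fatty acid carrier FABP5 was lower at 12 h (-2.61, SE 0.11) and with Dox (-1.85, SE 0.10), and at 12 h so were ACSL5 (-2.30, SE 0.08) and the mitochondrial transferase MCAT (-1.33, SE 0.11). SCD5, a second stearoyl-CoA desaturase, was higher with Dox (2.20, SE 0.19) and lower at 12 h (-0.79, SE 0.16), the reverse of SCD. MLXIPL, a glucose-responsive activator of lipogenic genes, was higher with Dox (1.21, SE 0.28) at 1.43 and 3.33 CPM. Of the further LXR genes, NR1H3, the gene of LXR alpha, was lower at 12 h (-1.33, SE 0.46) at 1.41 and 0.604 CPM.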

How the data were processed

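The 18 libraries were rRNA-depleted total RNA sequenced paired-end. The authors deposited whole-number counts per gene for all samples, without normalization. The paper's methods name Kallisto, edgeR, and limma-voom, whereas the submitters' processing notes list STAR, featureCounts, and hg38, so which counter made the table is unclear. The annotation and use of strand are not given in the sources used here. Of 22034 genes, 22011 matched a symbol and 21921 GENCODE 29 (GRCh38), from which exon lengths and overlaps were taken.

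Genes were kept by filterByExpr in edgeR 4.0.16 over the 6 groups (14164 genes, 64.3%), scaled by TMM, and fitted by limma 3.58.1 (R 4.3.3) with its voom weights and moderated test, with Benjamini-Hochberg adjustment over all tested genes. All p-values are two-sided. They set a difference against the spread among samples within groups, estimated over all groups of the fit and moderated over genes. VCaP-shERG and parental samples were fitted separately, the interaction on all 18. A gene was called at an adjusted p under 0.05, and past 2-fold where the absolute log2 fold change was also above 1. Groups do not overlap where every sample of the one lies above every sample of the other. Fold changes are moderated by voom's offset and are understated for genes of low count. Promoter letters were searched on both strands. The procedure was run on simulated counts with known 2-fold changes, as many up as down. Those counts held no shift of balance, so they do not test the dependence on scaling seen with Dox.

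All 35 members are named. From further pathway lists, genes past 2-fold with Dox or at 12 h are named, at most the 3 lowest and 3 highest of each list. Results for 2 genes of the lists are not reported here. Members and lists were chosen with earlier results of these data known. Replicates differed beyond sampling noise (chi-square per degree of freedom 1.70 to 4.96). As alternatives, DESeq2 1.42.0, the quasi-likelihood test of edgeR, RLE and upper-quartile factors, library size only, other filters, fits, and thresholds, the replicate block, and leaving out each sample were used.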

Additional observations from a re-analysis of the deposited data

Results flagged for a closer look

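Between 4 and 12 h of PBITE-1, 14 members differed by more than 2-fold (limma adjusted p under 0.05 for any difference). The test sets 12 h directly against 4 h, and the shared DMSO samples cancel out. No DMSO samples are labelled for either time, so hours of PBITE-1 and hours in culture cannot be told apart. The number was 12 to 14 when each sample was left out, and 12 to 14 under the other settings. All 14 were higher at 12 h. In sterol synthesis the log2 differences were 1.01 for MVK, 1.46 for MVD, 1.09 for FDPS, 1.10 for FDFT1, and 1.90 for LSS. In sensing and transport they were 1.16 for INSIG1, 1.37 for INSIG2, 1.51 for SREBF1, and 1.75 for STARD4. In fatty acid synthesis they were 2.35 for FASN, 2.14 for SCD, 1.04 for FADS1, 1.00 for FADS2, and 2.01 for ACSS2.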

How the results depend on the processing

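Of 5845 fits of single members under the alternatives, 5737 kept direction and call, 71 lost the call, 33 gained it, and 4 turned sign. Those that turned sign were PMVK with Dox (0.0249 with upper-quartile factors and 0.12 with library size only), STARD4 with Dox (0.0491 with library size only), and ACACA with Dox (0.0146 with library size only). With the 2-fold threshold, 8 members were lower and 3 higher with Dox. After PBITE-1 the counts were 0 lower and 5 higher at 4 h, 0 lower at 8 h, and 1 lower at 12 h. From 4 to 8 h they were 0 lower and 10 higher, and from 8 to 12 h 2 lower and 4 higher. From 4 to 12 h they were 0 lower and 14 higher. For 4 to 8 h and 8 to 12 h, the share of all genes past 2-fold was not taken, so these are counts only. With library size only, 5 members were lower at 4 h, and without a filter, or at an adjusted p under 0.01, 1 was lower from 4 to 8 h. When each sample was left out in turn, the members lower and higher numbered 25 to 26 and 6 to 7 with Dox, 2 to 3 and 24 to 27 for 4 h, 2 to 4 and 29 to 30 for 8 h, 3 to 4 and 29 for 12 h, 1 to 2 and 30 to 31 from 4 to 8 h, 8 to 12 and 11 to 15 from 8 to 12 h, and 4 and 25 to 27 from 4 to 12 h, and 34 to 35 differed between the responses to PBITE-1 and Dox. Pairing of the samples by replicate number was slight at most. In VCaP-shERG, correlations of deviations between samples of the same number were 0.009 to 0.02, at or above those of other pairs (-0.021 to 0.009). In parental cells they were -0.024 to 0.035, within those of other pairs (-0.042 to 0.05). With the replicate block, 26 members were lower and 7 higher with Dox, and 4 lower and 29 higher at 12 h, and no count of members moved by more than 1.5 times. The causes of these shifts were not tested. Precision is limited by 3 samples a group and, for ABCA1, MVD, and MYLIP, by low counts.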

Other observations

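Genes of fatty acid oxidation, which breaks down what the synthesis genes build, were called at shares near those of all tested genes (35.3% lower and 35.1% higher with Dox, 39.4% and 39.4% at 12 h). Of 14 tested genes, 5 were lower and 6 higher with Dox (median 0.10), and 6 were lower and 6 higher at 12 h of PBITE-1 (median -0.02). ACADS, a short-chain acyl-CoA dehydrogenase, was past 2-fold with Dox, from 3.48 to 7.15 CPM (1.03, SE 0.21, limma adjusted p = 9.54e-05). PPARA, a receptor that drives oxidation genes, was past 2-fold at 12 h, from 16.7 to 34.1 CPM (1.03, SE 0.09, limma adjusted p = 1.72e-13).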
